A study of Mus musculus with 24 samples.

Results

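The genes described here are the odorant receptor (OR) genes of mouse chromosome 2 whose symbols run from *Olfr990-ps1* to *Olfr1318*. They were chosen by their symbol. Of the 45706 genes counted in the main olfactory epithelium (OE), 1175 carry an *Olfr* symbol and 259 of these lie in the range. Bulk RNAseq of poly(A) RNA was made from the whole OE of 24 untreated mice, 12 *WT* and 12 *iRhom2-/-*, to ask how loss of iRhom2 alters OR expression. The *iRhom2-/-* mice carry the tm1b allele of *Rhbdf2*, the gene of iRhom2, which holds a LacZ reporter, and all mice were of mixed 129Sv and C57BL/6 background.

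The mice fall into 3 cohorts, taken here as separate submissions to the sequencing core, so that age and submission cannot be told apart. The first holds 3 *WT* and 3 *iRhom2-/-* mice of 8 weeks, and the second 3 *WT* and 3 *iRhom2-/-* mice of 10 weeks. The third holds 6 *WT* and 6 *iRhom2-/-* libraries of mice of 5 and 30 weeks. The names of these 12 libraries give the genotype but not the mouse or the age, so the ages were not separated, and the libraries are called by their numbers, WT_7 to WT_12 and KO_7 to KO_12. Library totals ranged from 25333822 to 48660394 counts.

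ORs are G protein-coupled receptors of the cilia of olfactory sensory neurons (OSNs). A mature OSN transcribes a single OR gene from a single allele, and the OSNs of a given OR send their axons to shared glomeruli of the olfactory bulb. Most OR genes have an uninterrupted coding sequence, lie in clusters that grew by tandem duplication, and are class II receptors. In bulk OE, fewer OSNs that chose an OR and less OR mRNA per OSN cannot be told apart.

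Levels are given as TMM-normalized CPM, a gene's counts scaled to a fixed library total. *Rhbdf2* was at 20.4, 23.6 and 20.2 CPM in the *WT* mice of 8 weeks and at 11.0, 13.4 and 12.9 CPM in the *iRhom2-/-* mice. In the mice of 10 weeks it was at 21.0, 20.7 and 21.5 CPM in *WT* and at 9.63, 10.2 and 7.19 CPM in *iRhom2-/-*. In the libraries of 5 and 30 weeks the lowest, median and highest levels were 19.3, 22.4 and 24.9 CPM in *WT* and 7.73, 10.1 and 12.4 CPM in *iRhom2-/-*. Every *iRhom2-/-* library lay below every *WT* library, so the genotype labels fit the targeted gene in all 24 libraries. Counts of the gene remained in each *iRhom2-/-* library. *Rhbdf2* fell in each cohort, with log2 fold changes of -0.80 at 8 weeks (adjusted p = 0.0297), -1.22 at 10 weeks (adjusted p = 0.0404) and -1.15 at 5 and 30 weeks (adjusted p = 0.000801, edgeR, adjusted over all genes tested). The call at 8 weeks was lost when any 1 of 4 of its 6 libraries was left out, with adjusted p of 0.0926 to 0.146. That at 10 weeks was lost for 5 of its 6 libraries, with adjusted p of 0.0829 to 0.227, and also with the summed OR counts as library size (adjusted p = 0.0806) and with the replicate number as a block (adjusted p = 0.0611).

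A few libraries stood apart and are named here before the members are compared. The library labelled *WT* replicate 3 of 8 weeks comes from a mouse labelled female, but it had 0.219 CPM of *Xist*, the RNA of the inactive X chromosome, and 48.6 CPM of the Y-linked *Ddx3y*. The mice of 10 weeks labelled female had 204 and 286 CPM of *Xist* and 0.0598 and 0.0929 CPM of *Ddx3y*. *WT* replicate 1 of 8 weeks had the lowest summed level of mature OSN markers of all 24 libraries, at 9514 CPM, and the highest of lymphocyte markers, at 64.9 CPM. In *iRhom2-/-* replicate 2 of 10 weeks the summed levels of erythrocyte genes (3935 CPM) and of Bowman gland markers (2519 CPM) were the highest of all libraries.

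The libraries of 5 and 30 weeks split by *Gap43*, a growth-associated gene of immature OSNs. It was at 167, 144 and 222 CPM in WT_7 to WT_9 and at 62.7, 66.4 and 67.3 CPM in WT_10 to WT_12. In *iRhom2-/-* it was at 65.4, 75.5 and 48.2 CPM in KO_7 to KO_9 and at 247, 214 and 198 CPM in KO_10 to KO_12. Each genotype thus held 3 libraries with high and 3 with low *Gap43*, in the opposite order of library numbers. No age was read from these values.

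The labelled tissue was checked against marker genes of the OE. Genes of mature OSNs (*Omp*, *Adcy3*, *Gnal*, *Cnga2* and 6 others) summed to 9514, 11720 and 11980 CPM in the *WT* mice of 8 weeks and to 14040, 16230 and 17850 CPM in the *iRhom2-/-* mice. At 10 weeks the sums were 17860, 14120 and 16700 CPM in *WT* and 14720, 12720 and 16210 CPM in *iRhom2-/-*. In the libraries of 5 and 30 weeks they ranged from 10300 to 14930 CPM in *WT* and from 9846 to 15080 CPM in *iRhom2-/-*. None of these 10 genes was at 0 in all libraries, and *Omp*, the olfactory marker protein of mature OSNs, was the most abundant per kb. The genotypes overlapped at 10 weeks and at 5 and 30 weeks, whereas at 8 weeks all 3 *iRhom2-/-* mice lay above all 3 *WT* mice.

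The 259 members occupy 2 stretches of chromosome 2 of GRCm38. The first holds 233 members from *Olfr990-ps1* to *Olfr1274*, at chr2:85388132-90403897, and the second 26 members from *Olfr1275* to *Olfr1318*, at chr2:111230360-112159157. A gap of 20826462 bases lies between them. GENCODE lists 222 members as protein coding, 26 as unprocessed pseudogenes, 8 as polymorphic pseudogenes and 3 as transcribed unprocessed pseudogenes. By their MOR names the members belong to 49 receptor families, and 10 have no such name.

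OR transcripts were scarce in whole OE, and the members made up about the same part of them in every library. In the *WT* mice the level per kb of exon had a median of 0.222 CPM over the 259 members, from 0 to 3.17 CPM, and 27 members reached 1 CPM per kb. The 222 protein coding members had a median of 0.290 CPM per kb, against 0.00361 CPM per kb in the 26 unprocessed pseudogenes. No count fell on 13 members, and 223 had a count in 12 or more libraries. Between 207 and 233 members had a count in any 1 library.

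The most abundant members per kb in *WT* mice were *Olfr1112* at 3.17 CPM, *Olfr1301* at 2.51, *Olfr1229* at 2.48, *Olfr1257* at 2.44 and *Olfr1110* at 2.31. In the *WT* mice of 8 weeks *Olfr1112* (ENSMUSG00000044487, chr2:87187798-87192767) was at 3.46, 4.88 and 3.78 CPM, and in the *iRhom2-/-* mice at 5.91, 3.20 and 5.71 CPM. *Olfr1301*, from the second stretch, was at 5.68, 12.2 and 11.9 CPM in the same *WT* mice and at 10.8, 5.10 and 8.56 CPM in the *iRhom2-/-* mice. The genotypes overlapped for both genes. The combined log2 fold changes of the 5 genes lay between -0.22 and 0.02, and no adjusted p was under 0.629 (edgeR). The 10 members with the most counts held 21.9% of all member counts, and the top 50 held 57.7%.

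Summed over the 259 members, the counts were 0.0314 ± 0.00693% of all counts in the *WT* mice of 8 weeks (SD, n = 3) and 0.0377 ± 0.00260% in the *iRhom2-/-* mice (SD, n = 3). At 10 weeks the share was 0.0319 ± 0.00379% in *WT* (SD, n = 3) and 0.0281 ± 0.00478% in *iRhom2-/-* (SD, n = 3). In the libraries of 5 and 30 weeks the lowest, median and highest shares were 0.0266, 0.0313 and 0.0354% in *WT* and 0.0319, 0.0347 and 0.0363% in *iRhom2-/-*. The genotypes overlapped in each cohort, and the share was not tested. At 8 weeks the ratio of the *iRhom2-/-* to the *WT* mean was 1.2, and it was 1.07 without *WT* replicate 1, whose share of 0.0235% was the lowest of all 24 libraries.

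As a part of all OR counts the members were steadier, between 17.0 and 20.9% in the 24 libraries. The share of OR counts was 19.4 ± 0.790% in *WT* and 18.4 ± 0.886% in *iRhom2-/-* mice of 8 weeks (SD, n = 3 each), a ratio of 0.947. At 10 weeks it was 18.3 ± 0.693% and 17.7 ± 0.789% (SD, n = 3 each), and at 5 and 30 weeks 20.1 ± 0.458% and 19.97 ± 0.420% (SD, n = 6 each). Set against all OR counts, the ratio at 8 weeks thus lay below 1 where it had been above 1 against all counts.

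**Figure D1:**
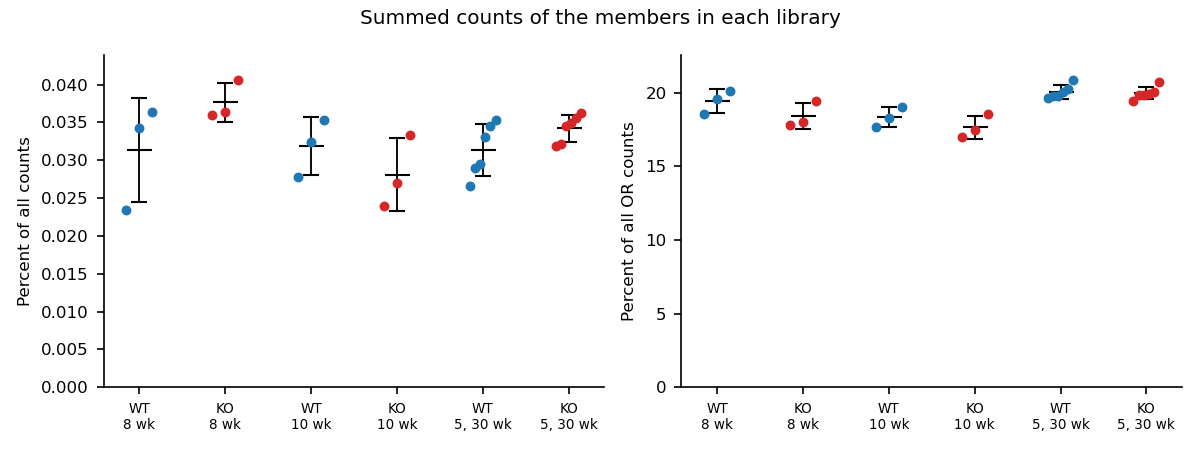
Summed counts of the 259 members as a percent of all counts (left) and of all OR counts (right), 1 point per library, ordered by value within each group, with mean and SD as bars (n = 3 or 6). The genotypes overlap in every cohort, and the share of OR counts stays between 17.0 and 20.9%.

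At 8 weeks most members were higher in *iRhom2-/-* mice, but no single member passed the test. Of 193 members that could be tested, 135 had a log2 fold change above 0 and 58 below, with a median of 0.29, against 0.00 over the 19335 genes tested. No member was called in either direction at an adjusted p under 0.05 (edgeR), while 0.879% of all genes were called higher and 0.517% lower. At an unadjusted p under 0.05 there were 21 higher and 3 lower members, against 10.8% and 9.02% of all genes. Both directions together held 15 to 30 members with each mouse left out and 12 to 29 over the other alternatives. DESeq2 called *Olfr1006* and *Olfr1024*, and edgeR's likelihood ratio test called *Olfr1024* and *Olfr995*, the latter a gene chosen after its values were seen. The same tools called 5.21% and 3.72% of all genes.

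The direction at 8 weeks was shared with the other ORs and with the mature OSN markers. The 719 other ORs tested had a median of 0.37, with 80 higher and 15 lower at an unadjusted p under 0.05. Of the 10 mature OSN markers 9 were above 0, with a median of 0.49, and *Omp* had a log2 fold change of 0.62 (adjusted p = 0.112, edgeR). Scaled by the summed OR counts of each library in place of TMM, the members' median was -0.02 and 94 of 193 lay above 0. This scaling moved all genes alike, and their median to -0.33, so it cannot change how the members stand to genes at large. Without *WT* replicate 1 the members' median was 0.15 with TMM. Without *WT* replicate 3, whose sex label the X- and Y-linked genes contradict, the median was 0.31, 15 members had an unadjusted p under 0.05 and none was called. What part the level of mature OSN RNA has in the members' values was not tested.

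The member with the smallest p at 8 weeks was *Olfr1024* (ENSMUSG00000075206), a receptor gene with a single exon at chr2:85904069-85905052 on the minus strand. It was at 0.370, 1.67 and 2.07 CPM in the *WT* mice and at 0.0622, 0 and 0.0683 CPM in the *iRhom2-/-* mice. All 3 *iRhom2-/-* mice lay below the lowest *WT* mouse, with 6 counts in all against 175, and the count of 0 allows up to 3 counts. The ratio of *iRhom2-/-* to *WT* counts was 0.0321, with an exact 95% interval of 0.0116 to 0.0714 that covers counting error only. The log2 fold change was -4.91 (SE 0.96, adjusted p = 0.0581, edgeR), just outside the threshold. With edgeR's robust estimate of the spread, an option that was compared with these results in view, the adjusted p was 0.0451. The adjusted p was 0.0287 without *WT* replicate 1 and 0.151 without *WT* replicate 3, and the highest with any 1 mouse left out was 0.210.

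Among higher members the smallest p at 8 weeks belonged to *Olfr1013* (ENSMUSG00000053287, chr2:85767098-85774649, plus strand). It was at 1.57, 1.21 and 0.950 CPM in the *WT* mice and at 2.07, 2.59 and 2.75 CPM in the *iRhom2-/-* mice. The genotypes did not overlap, and the log2 fold change was 0.97 (SE 0.28, adjusted p = 0.129, edgeR). Its gene model shares 1937 bases with that of *Olfr1014* on the same strand, so counts of this pair could have been divided between them.

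At 10 weeks the members leaned the other way. Of 176 tested, 54 were above 0 and 122 below, with a median of -0.25 against 0.01 over all 18764 genes tested. No member was called in either direction (edgeR, adjusted p under 0.05), against 0.0533% of all genes higher and 0.0799% lower. The unadjusted p was under 0.05 for 10 higher and 22 lower members, against 3.97% and 3.82% of all genes. In both directions together, 18 to 28 members had such a p with each mouse left out. The other alternatives gave 14 to 35. DESeq2 and edgeR's likelihood ratio test each called *Olfr1228* and *Olfr1297*, and 0.683% and 0.650% of all genes. The members' median was -0.18 with the summed OR counts as library size, where that of all genes was 0.10, and -0.26 without *iRhom2-/-* replicate 2, when 24 members had an unadjusted p under 0.05 and none was called by edgeR. It was -0.14 without *WT* replicate 2, with 72 of 177 members above 0, and -0.40 without *iRhom2-/-* replicate 1.

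The other ORs leaned likewise at 10 weeks, with a median of -0.38 over 662 genes, 38 higher and 89 lower at an unadjusted p under 0.05. Class I receptors had a median of -0.49 and the cluster of chromosome 9 a median of -0.60. Of the mature OSN markers 1 of 10 was above 0, with a median of -0.17. The part of these markers in the members' values was not tested.

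The higher member with the smallest p at 10 weeks, *Olfr1228* (ENSMUSG00000099486), lies at chr2:89247964-89254062 on the minus strand. It was at 4.11, 5.39 and 4.84 CPM in the *WT* mice and at 9.30, 8.08 and 8.55 CPM in the *iRhom2-/-* mice. All 3 *iRhom2-/-* mice lay above all 3 *WT* mice, with a log2 fold change of 0.85 (SE 0.17, adjusted p = 0.246, edgeR). At 8 weeks the same gene was at 6.18, 4.47 and 5.11 CPM in *WT* and at 11.0, 5.40 and 2.98 CPM in *iRhom2-/-*, so the genotypes overlapped there.

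The lower one, *Olfr1297* (ENSMUSG00000094858), lies in the second stretch at chr2:111615233-111626497 on the minus strand. At 10 weeks it was at 8.73, 8.91 and 8.22 CPM in *WT* and at 4.84, 2.59 and 4.71 CPM in *iRhom2-/-*. The genotypes were well apart, and the log2 fold change was -1.09 (SE 0.24, adjusted p = 0.318, edgeR). In the mice of 8 weeks it was at 4.36, 4.52 and 4.65 CPM in *WT* and at 5.56, 5.04 and 5.42 CPM in *iRhom2-/-*. There all *iRhom2-/-* mice lay above all *WT* mice, and the level of the *WT* mice of 10 weeks was matched in no other group.

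In the libraries of 5 and 30 weeks the members' log2 fold changes were smaller than in the other cohorts. This fit pools both ages without a term for them, so differences that vary with age are averaged. It also has more libraries per genotype than the fits of the other cohorts. Whether the effect of genotype itself is weaker at these ages was not tested. Of 173 members tested, 103 were above 0 and 70 below, with a median of 0.08 against 0.00 over all 18481 genes tested. In edgeR's test no member was called in either direction at an adjusted p under 0.05, against 0.157% of all genes higher and 0.119% lower. At an unadjusted p under 0.05, 10 members were higher and 1 was lower, against 7.35% and 6.80% of all genes. Single libraries moved the number of such members, in both directions together, between 6 and 16, and the other alternatives between 7 and 15. DESeq2 called *Olfr1024*, *Olfr1242* and *Olfr1259*, and the likelihood ratio test *Olfr1024* and *Olfr1259*, of which *Olfr1259* was chosen after its values were seen. Over all genes these tools called 1.67% and 1.10%. The 631 other ORs tested had a median of 0.10, with 29 higher and 10 lower. With the summed OR counts as library size the members' median was -0.02 and that of all genes -0.11.

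*Olfr1242* (ENSMUSG00000075085, chr2:89492380-89498335, minus strand) had the smallest p among higher members of this cohort. Its lowest, median and highest levels were 2.41, 2.59 and 3.32 CPM in *WT* and 3.60, 3.89 and 4.23 CPM in *iRhom2-/-*. All 6 *iRhom2-/-* libraries lay above all 6 *WT* libraries, on both sides of the *Gap43* split. The log2 fold change was 0.53 (SE 0.13, adjusted p = 0.0984, edgeR). *Olfr1024* had the smallest p among lower members, at 0.644, 1.37 and 1.90 CPM in *WT* and at 0.0703, 0.291 and 0.975 CPM in *iRhom2-/-*. Its genotypes overlapped only by KO_8, the highest *iRhom2-/-* library, which lay above WT_7. The log2 fold change of *Olfr1024* was -1.72 (SE 0.46, adjusted p = 0.133, edgeR).

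With all 24 libraries in a fit with the cohort as a term, 2 members passed the test, *Olfr1024* and *Olfr1212*. Of 203 members tested, 1 was higher and 1 lower at an adjusted p under 0.05, against 0.660% and 0.467% of the 20763 genes tested, so the members were called about as often as genes at large. At an unadjusted p under 0.05, 19 members were higher and 8 lower, against 6.26% and 6.13% of all genes. The median was 0.05, with 114 members above 0 and 89 below, and with the summed OR counts as library size it was -0.05, where that of all genes was -0.11. Single libraries moved it between 0.01 (without KO_10, with 103 of 203 above 0) and 0.10 (without *WT* replicate 2 of 10 weeks). Among 749 other ORs 10 were called higher and 2 lower, with a median of 0.04. This fit holds the libraries of the 3 single fits, so those are no separate support for it.

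*Olfr1024* fell in *iRhom2-/-* mice, with a combined log2 fold change of -2.00 (SE 0.45, adjusted p = 0.0243, edgeR). At 10 weeks it was at 2.02, 2.41 and 4.04 CPM in *WT* and at 1.59, 1.85 and 1.55 CPM in *iRhom2-/-*. The 3 *iRhom2-/-* mice again lay below all 3 *WT* mice, though by less than at 8 weeks, with a log2 fold change of -0.76 (SE 0.32, adjusted p = 0.628, edgeR). The ratio of counts was 0.579 at 10 weeks (exact 95% interval 0.472 to 0.708) and 0.298 at 5 and 30 weeks (0.226 to 0.390), against 0.0321 at 8 weeks, for counting error only. A difference between cohorts did not pass the test over all genes (unadjusted p = 0.00187, adjusted p = 0.226, edgeR). The combined call was lost without *iRhom2-/-* replicate 1 (adjusted p = 0.0528) or replicate 3 of 8 weeks (adjusted p = 0.0528).

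*Olfr1212* (ENSMUSG00000048226, chr2:88953969-88961313, plus strand) rose, with a combined log2 fold change of 0.77 (SE 0.18, adjusted p = 0.0310, edgeR). It was at 0.871, 0.912 and 1.53 CPM in the *WT* mice of 8 weeks and at 3.55, 1.56 and 1.55 CPM in the *iRhom2-/-* mice. In the mice of 10 weeks it was at 1.03, 0.856 and 0.508 CPM in *WT* and at 1.68, 1.19 and 1.15 CPM in *iRhom2-/-*. At 5 and 30 weeks the lowest, median and highest levels were 0.816, 1.31 and 1.81 CPM in *WT* and 1.55, 2.03 and 2.66 CPM in *iRhom2-/-*. The genotypes were apart at 8 and 10 weeks, by a narrow margin at 8 weeks, and overlapped at 5 and 30 weeks. The call of *Olfr1212* was lost with the summed OR counts as library size (adjusted p = 0.0853) and without any 1 of 8 libraries. These were *WT* replicates 1 (0.0609) and 2 (0.0566) and *iRhom2-/-* replicate 1 (0.0578) of 8 weeks, *WT* replicate 3 (0.0561) and *iRhom2-/-* replicate 1 (0.0585) of 10 weeks, and WT_7 (0.0558), WT_11 (0.0560) and KO_8 (0.0506), each with its adjusted p. Without *WT* replicate 3 of 8 weeks, whose sex label is in doubt, both members were called (adjusted p = 0.0289 for *Olfr1024* and 0.0300 for *Olfr1212*). Without the cohort term, or from the mice of 8 and 10 weeks alone, 0 members were called (edgeR).

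**Figure D2:**
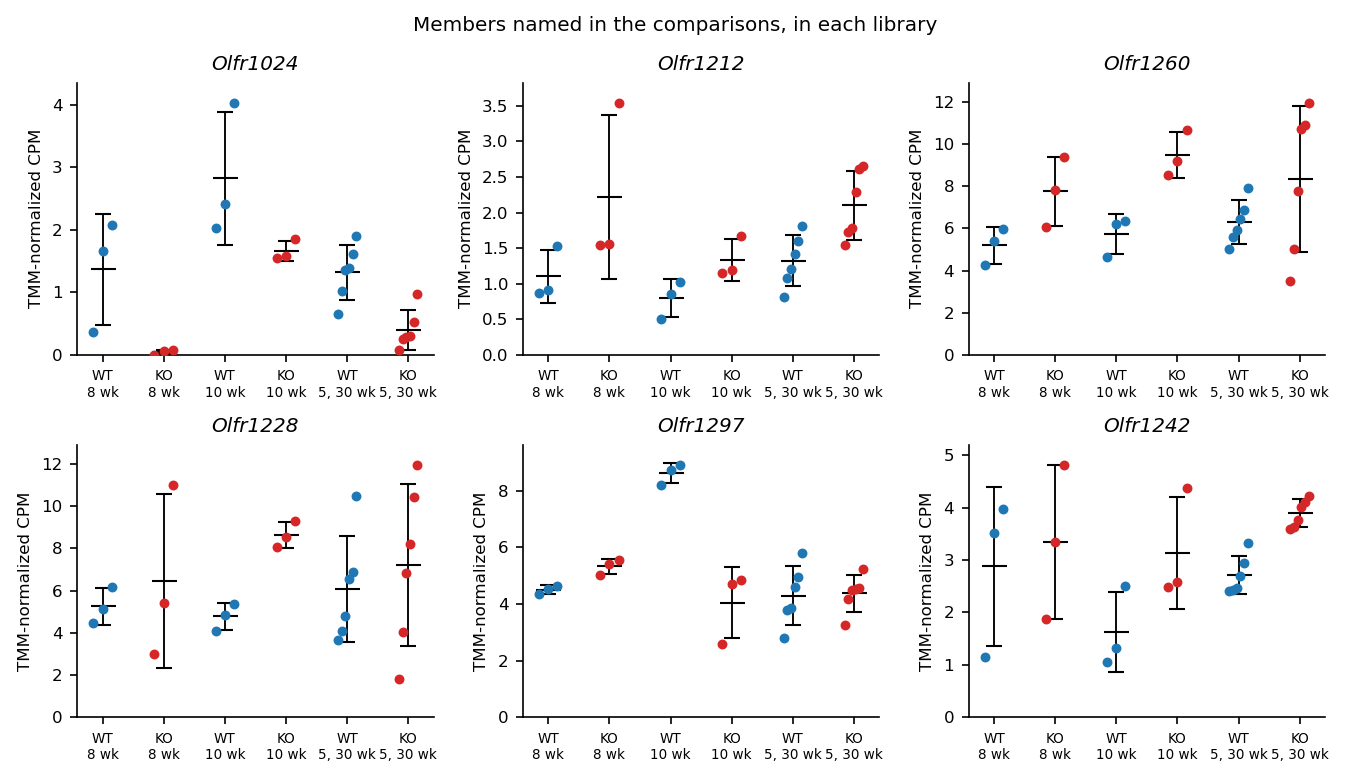
CPM of 6 members in each library, with points ordered by value within each group and mean and SD as bars (n = 3 per group at 8 and 10 weeks, n = 6 per group at 5 and 30 weeks). *Olfr1024* is lower in *iRhom2-/-* and *Olfr1212* higher, whereas *Olfr1297*, which did not pass the test, is at 8.22 to 8.91 CPM in *WT* mice of 10 weeks.

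Among members higher in *iRhom2-/-* mice in all 3 cohorts, the next 4 by p in the combined fit after *Olfr1212* did not pass the adjusted threshold. They were *Olfr1260* (log2 fold change 0.53, adjusted p = 0.111), *Olfr1275* (0.92, adjusted p = 0.111), *Olfr1209* (0.53, adjusted p = 0.126) and *Olfr1006* (0.58, adjusted p = 0.130, edgeR). DESeq2, which called 1.67% of all genes in this fit, called all 4. *Olfr1209* was also called by edgeR without *iRhom2-/-* replicate 2 of 10 weeks. *Olfr1260* (ENSMUSG00000042894, chr2:89974340-89981586, plus strand) was at 5.97, 4.24 and 5.41 CPM in the *WT* mice of 8 weeks and at 9.39, 6.09 and 7.81 CPM in *iRhom2-/-*. At 10 weeks *Olfr1260* was at 6.20, 4.63 and 6.37 CPM in *WT* and at 10.7, 8.52 and 9.23 CPM in *iRhom2-/-*. All *iRhom2-/-* mice of both ages lay above all *WT* mice of their age. In the third cohort it was at 10.7, 10.9 and 12.0 CPM in KO_7 to KO_9 but at 3.51, 5.04 and 7.80 CPM in KO_10 to KO_12, against 5.04 to 7.95 CPM in *WT*. The *iRhom2-/-* libraries with low *Gap43* thus lay above all *WT* libraries and the others did not.

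*Olfr1275* (ENSMUSG00000074966), the first gene of the second stretch at chr2:111230360-111235286, was likewise highest in the *iRhom2-/-* libraries with low *Gap43*. It was at 1.46, 1.14 and 2.10 CPM in KO_7 to KO_9 and at 0.246, 0.345 and 0.987 CPM in KO_10 to KO_12, against 0.381 to 0.833 CPM in *WT*. KO_12, with high *Gap43*, also lay above all *WT* libraries, unlike for *Olfr1260*. Without KO_10 alone, the combined fit called *Olfr1260*, *Olfr1275*, *Olfr1024* and *Olfr1212*. Whether the split stands for age was not tested, since the ages of these libraries are not known.

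Among members lower in all 3 cohorts, the next 4 by p after *Olfr1024* did not pass either. They were *Olfr1137* (log2 fold change -0.74, adjusted p = 0.111), *Olfr1028* (-0.56, adjusted p = 0.251), *Olfr1054* (-0.56, adjusted p = 0.304) and *Olfr1116* (-0.45, adjusted p = 0.358, edgeR). *Olfr1137* (ENSMUSG00000075150, chr2:87708873-87713179, minus strand) was at 0.588, 0.730 and 0.779 CPM in the *WT* mice of 8 weeks and at 0.249, 0.464 and 0.501 CPM in *iRhom2-/-*. At 10 weeks it was at 0.706, 0.824 and 0.837 CPM in *WT* and at 0.628, 0.445 and 0.372 CPM in *iRhom2-/-*. The genotypes were apart at both ages and overlapped at 5 and 30 weeks. *Olfr1137* was called by DESeq2, by edgeR's likelihood ratio test and with the summed OR counts as library size.

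*Olfr1028* (ENSMUSG00000057207, chr2:85950437-85953910, plus strand), a receptor that the study's text singles out, was at 1.22, 1.12 and 0.731 CPM in the *WT* mice of 8 weeks and at 0.539, 1.29 and 0.774 CPM in *iRhom2-/-*. At 10 weeks it was at 2.63, 2.03 and 1.79 CPM in *WT* and at 1.65, 0.964 and 0.743 CPM in *iRhom2-/-*. It overlapped between the genotypes at 8 weeks and was apart at 10 weeks, where the log2 fold change was -0.94 (SE 0.36, adjusted p = 0.582, edgeR). In the libraries of 5 and 30 weeks it ranged from 0.612 to 1.22 CPM in *WT* and from 0.272 to 0.898 CPM in *iRhom2-/-*, so the genotypes overlapped.

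Whether the genotype difference itself differed between the 3 cohorts was tested with both interaction terms together. No member was called (edgeR's quasi-likelihood test, adjusted p under 0.05), against 0.0144% of all genes, and 20 of 203 members had an unadjusted p under 0.05, against 12.7% of all genes. The likelihood ratio test called 5 members, *Olfr1014*, *Olfr1024*, *Olfr1148*, *Olfr1271* and *Olfr1297*, against 0.554% of all genes and 10 of 952 ORs. The smallest p belonged to *Olfr1148*, *Olfr1014* and *Olfr1271* (unadjusted p = 0.000506, 0.000518 and 0.000533, adjusted p = 0.186 each, edgeR).

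*Olfr1148* (ENSMUSG00000061875, chr2:87830533-87835803, plus strand) was at 0.740, 0.479 and 0.292 CPM in *WT* and at 1.10, 1.07 and 2.39 CPM in *iRhom2-/-* mice of 8 weeks. At 10 weeks *Olfr1148* was at 0.738, 1.11 and 1.47 CPM in *WT* and at 0.718, 0.408 and 0.248 CPM in *iRhom2-/-*. All *iRhom2-/-* mice lay above all *WT* mice at 8 weeks and below them at 10 weeks. *Olfr1014* (ENSMUSG00000059379, chr2:85772713-85778974) was at 1.28, 1.68 and 1.23 CPM in *WT* and at 0.628, 0.667 and 0.310 CPM in *iRhom2-/-* at 10 weeks. *Olfr1271* (ENSMUSG00000075062, chr2:90260546-90271032) was at 1.83, 1.97 and 1.76 CPM in *WT* and at 0.658, 0.519 and 1.05 CPM in *iRhom2-/-* at that age. Both had log2 fold changes of the other sign at 8 weeks, 0.66 and 0.42, against -1.38 and -1.31 at 10 weeks.

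The 3 cohorts share no libraries and can be set side by side. Of 170 members tested in each, 22 were higher in all 3, 20 were lower in all 3 and 128 differed in sign. Of 615 other ORs 88 were higher in all 3, 60 were lower in all 3 and 467 differed in sign, about the same part. Across these 170 members, which are not independent of each other, Pearson's r of the log2 fold changes was -0.01 between 8 and 10 weeks, 0.47 between 8 weeks and 5 and 30 weeks, and 0.21 between 10 weeks and 5 and 30 weeks. Over the 615 other ORs these values were 0.07, 0.33 and 0.12. Fits of single cohorts never reached 66 members, whose counts were too low.

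Windows of the chromosome had different medians at 10 weeks. The cluster was divided by start position into windows of 1 Mb, a division chosen after the values were seen, and members tested in all 3 cohorts were counted. From 85 to 86 Mb 17 of 19 members lay below 0 at 10 weeks with a median of -0.46, from 86 to 87 Mb 30 of 32 with a median of -0.43, and from 87 to 88 Mb 26 of 29 with a median of -0.46. From 88 to 89 Mb 15 of 33 lay below 0 with a median of 0.11, from 89 to 90 Mb 15 of 29 with a median of -0.06, and beyond 90 Mb 6 of 8 with a median of -0.12. In the second stretch 7 of 16 lay below 0 from 111 to 112 Mb, with a median of 0.17, and 3 of 4 from 112 Mb on, with a median of -0.37. Outside the cluster, 502 of the 662 other ORs tested lay below 0 at 10 weeks with a median of -0.38. The median was -0.49 in class I receptors and -0.60 in the cluster of chromosome 9. No test of the windows was made.

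Over the members tested in the fit at 10 weeks, the medians of the first 3 windows were -0.38, -0.35 and -0.41 with the summed OR counts as library size. Leaving out each mouse in turn, they ranged from -0.67 to -0.26, from -0.63 to -0.28 and from -0.56 to -0.44. The medians of the next windows changed sign with the mouse left out, from -0.13 to 0.12 at 88 Mb, from -0.17 to 0.19 at 89 Mb and from -0.19 to 0.09 at 90 Mb. At 111 Mb they ranged from 0.01 to 0.34 and at 112 Mb from -0.44 to -0.24. At 8 weeks the 8 windows had medians, in order, of 0.66, 0.34, 0.31, 0.46, 0.19, 0.39, -0.01 and -0.36. Over the members tested at 8 weeks, leaving out *iRhom2-/-* replicate 2 took the median from 0.55 to 0.07 at 85 Mb and from 0.31 to 0.02 at 86 Mb. With each mouse left out, the medians ranged from 0.13 to 0.43 at 87 Mb, 0.20 to 0.45 at 88 Mb and 0.02 to 0.34 at 89 Mb. They ranged from 0.31 to 0.46 at 90 Mb and from -0.55 to -0.12 at 112 Mb. At 111 Mb the sign changed, from -0.27 to 0.20. The medians of the first 3 windows were 0.25, 0.03 and 0.003 at 8 weeks with the summed OR counts as library size. Over the alternatives, fits without each library aside, medians at 8 weeks ranged from 0.10 to 0.45 at 88 Mb and from -0.17 to 0.19 at 89 Mb. The ranges were 0.05 to 0.46 at 90 Mb, -0.39 to 0.08 at 111 Mb and -0.67 to -0.001 at 112 Mb. At 5 and 30 weeks all medians of the windows lay between 0.03 and 0.24. Over the members tested there, the medians changed sign with the library left out at 85 Mb (-0.12 to 0.23), 86 Mb (-0.09 to 0.11), 87 Mb (-0.05 to 0.11) and 89 Mb (-0.02 to 0.16). With the summed OR counts as library size, which moved the median of all genes to -0.11, those of the first 3 windows were -0.02, -0.09 and -0.04.

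**Figure D3:**
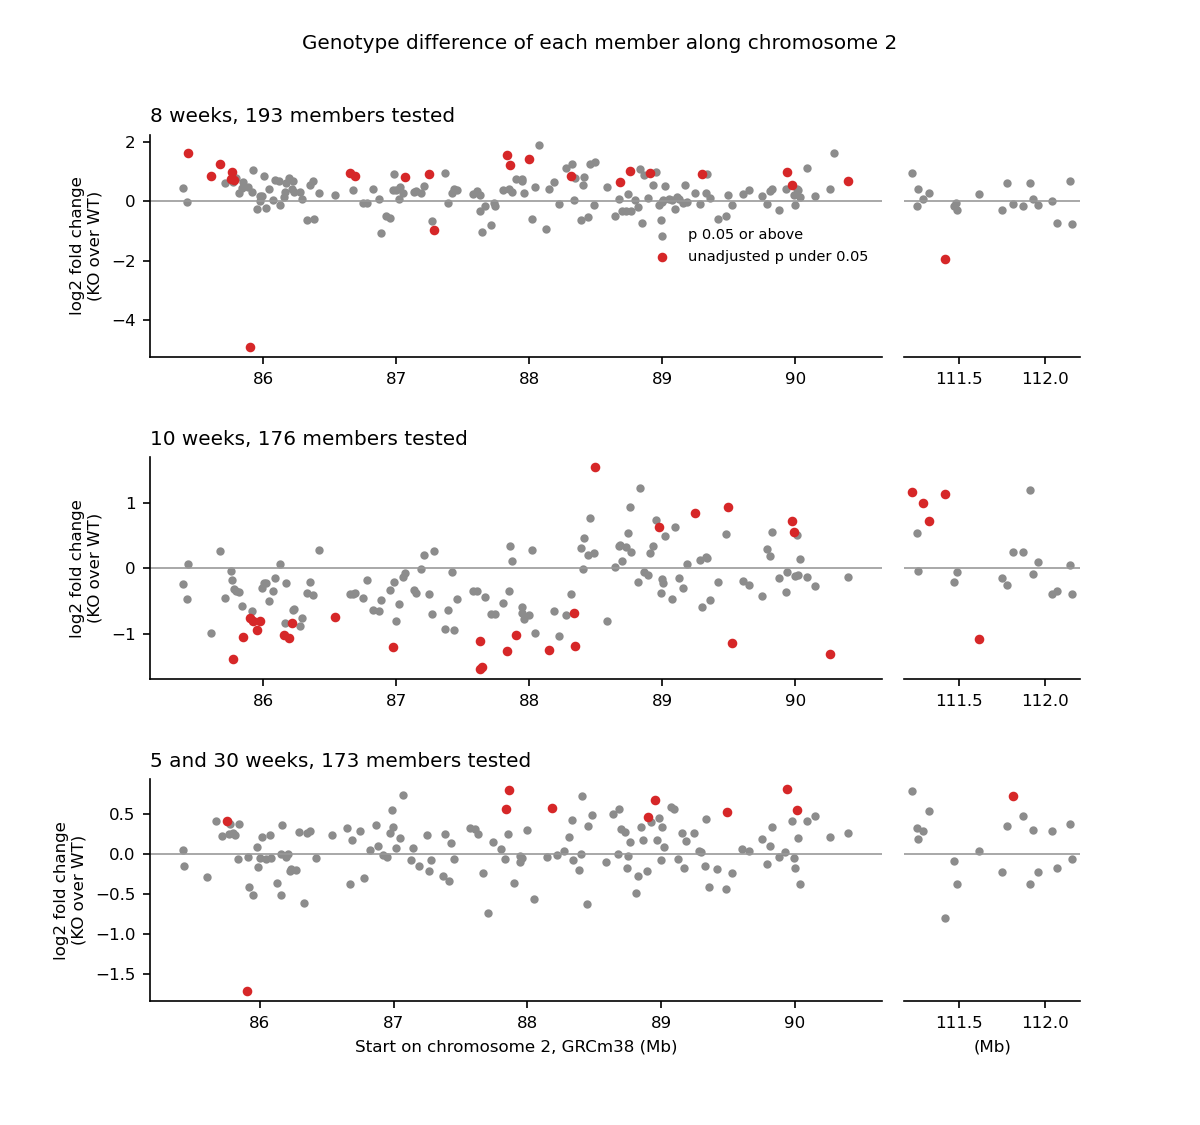
Log2 fold change (*iRhom2-/-* over *WT*) of each tested member against its start on chromosome 2 (GRCm38, Mb), for 193 members at 8 weeks, 176 at 10 weeks and 173 at 5 and 30 weeks, with an unadjusted p under 0.05 in red. At 10 weeks most members from 85 to 88 Mb lie below 0. The medians of the first 3 windows of 1 Mb were -0.46, -0.43 and -0.46 over members tested in all 3 cohorts. With OR counts as library size, which is not plotted, they were -0.38, -0.35 and -0.41. The other ORs tested at 10 weeks had a median of -0.38 in the plotted fit.

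Of the receptor families, the 9 with 10 or more members are described, a choice made after the values were seen, and no test of a difference between families was made. Their spans overlap in part. Family MOR174 spans chr2:87941645-88346492, and 10 of its 17 members were tested in all 3 cohorts. Of these 9 were above 0 at 8 weeks with a median of 0.56, while all 10 were below 0 at 10 weeks with a median of -0.73. At 5 and 30 weeks 3 were above 0 and 7 below, with a median of -0.03. Family MOR264, which holds *Olfr1112*, had 10 of 13 members above 0 at 8 weeks and 12 of 13 below 0 at 10 weeks, with medians of 0.35 and -0.39. Family MOR177, whose span overlaps that of MOR264, had medians of -0.16 and -0.54 over 7 members. Family MOR225 spans chr2:88387062-88902311, with medians of -0.23 at 8 weeks and 0.25 at 10 weeks over 10 members. Family MOR230, whose span overlaps that of MOR225, had medians of 0.94 and 0.36 over 7 members. In the other 4 families the medians at 8 and 10 weeks were between -0.21 and 0.23, in MOR231 (0.15 and -0.21), MOR233 (0.05 and 0.10), MOR248 (0.23 and -0.06) and MOR245 (-0.04 and 0.07), whose members lie in both stretches. At 5 and 30 weeks the medians were -0.06 in MOR264, 0.15 in MOR177, 0.08 in MOR225, 0.35 in MOR230, -0.04 in MOR231, 0.22 in MOR233, 0.04 in MOR248 and 0.29 in MOR245.

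The level of a member over the 24 libraries was compared with that of 222 others that had enough counts, as Pearson's r of log2 CPM, which also reflects differences between cohorts. *Olfr1212* was most like its neighbour *Olfr1211*, which starts 27.1 kb away, with r = 0.81. *Olfr1228* was most like *Olfr1260* (r = 0.80) and *Olfr1242* most like *Olfr1193* (r = 0.71). *Olfr1024* was most like *Olfr1301* of the second stretch (r = 0.74), *Olfr1297* most like *Olfr1131* (r = 0.63) and *Olfr1013* most like *Olfr1012* (r = 0.59). *Olfr1211* itself had a combined log2 fold change of 0.42 (SE 0.22, adjusted p = 0.475, edgeR) and was named for its likeness.

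Many members have close relatives, between which reads can be divided. For 230 members with a coding sequence in the annotation, identity to the closest OR had a median of 88.1%, and it was 95% or more for 55. The closest OR was another member for 209 of the 230. The longest identical run with it had a median of 58 bases, and for 80 members it was 100 bases or more. The called members were less alike to their relatives than most. *Olfr1024* and its closest OR, *Olfr1030*, were identical at 67.5% of 952 aligned bases, with no identical run over 18 bases. *Olfr1212* and *Olfr1211* were identical at 81.8% of 936 aligned bases, with a longest run of 34. *Olfr1028* and *Olfr1029* were identical at 98.1% of 975 aligned bases with a run of 472 bases, so reads of this pair could have been divided between them, which was not tested.

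The starts of the coding sequences of these 3 pairs show the difference in likeness. Each comes from the GENCODE transcripts for GRCm38, is read in the direction of the gene from the start codon, lies in 1 coding exon, and has in capitals the bases that differ from the other gene of its pair in the alignment, including bases that stand against a gap. *Olfr1024* is at chr2:85904936-85905052 on the minus strand and *Olfr1030* at chr2:85983842-85983961 on the plus strand, and 40 and 43 of their bases are in capitals.
Olfr1024: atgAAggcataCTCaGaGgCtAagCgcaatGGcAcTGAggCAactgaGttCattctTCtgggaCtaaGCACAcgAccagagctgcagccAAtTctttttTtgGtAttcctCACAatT
Olfr1030: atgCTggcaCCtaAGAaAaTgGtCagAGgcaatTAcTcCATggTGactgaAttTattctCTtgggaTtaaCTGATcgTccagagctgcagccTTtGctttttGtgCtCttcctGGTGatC
*Olfr1212* is at chr2:88958468-88958587 on the plus strand and *Olfr1211* at chr2:88930194-88930313 on the minus strand, and 21 bases of each are in capitals.
Olfr1212: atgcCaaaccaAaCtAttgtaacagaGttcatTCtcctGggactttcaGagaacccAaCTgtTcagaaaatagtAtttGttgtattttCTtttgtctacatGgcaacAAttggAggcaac
Olfr1211: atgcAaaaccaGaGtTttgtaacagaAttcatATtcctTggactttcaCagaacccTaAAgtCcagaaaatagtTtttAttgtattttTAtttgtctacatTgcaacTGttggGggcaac
*Olfr1028* is at chr2:85951065-85951184 and *Olfr1029* at chr2:85975245-85975364, both on the plus strand, and 5 bases of each are in capitals.
Olfr1028: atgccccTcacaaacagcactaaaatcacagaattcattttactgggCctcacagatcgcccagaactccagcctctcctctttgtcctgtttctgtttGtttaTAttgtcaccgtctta
Olfr1029: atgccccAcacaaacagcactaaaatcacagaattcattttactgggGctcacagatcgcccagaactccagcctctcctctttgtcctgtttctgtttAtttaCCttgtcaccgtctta

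Genes with a role in OR choice were listed apart from the members, among them *Lhx2*, *Ldb1* and the *Ebf* genes, whose proteins act at OR enhancers, *Kdm1a*, a histone demethylase, and *Adcy3* and *Rtp1*, which act in the feedback that keeps a choice. All 29 were tested. At 8 weeks 17 were above 0, with a median of 0.08, and *Ric8b*, a chaperone of the olfactory G protein, rose (log2 fold change 0.66, adjusted p = 0.0421, edgeR). *Ric8b* was the only gene of the list called there, where 1.4% of all genes were called and 9 of 10 mature OSN markers lay above 0. Its log2 fold change was -0.05 at 10 weeks (adjusted p = 0.956), 0.10 at 5 and 30 weeks (adjusted p = 0.842) and 0.20 in the combined fit (adjusted p = 0.488, edgeR). In the combined fit 24 were above 0, with a median of 0.10, and *Ebf3* rose (log2 fold change 0.25, adjusted p = 0.0140, edgeR). *Ebf3* was the only gene of the list called in that fit, where 1.13% of all genes were called. *Lhx2* had a combined log2 fold change of 0.17 (adjusted p = 0.275) and *Ldb1* of 0.18 (adjusted p = 0.274, edgeR). The median was 0.01 at 10 weeks, with 15 above 0, and 0.14 at 5 and 30 weeks, with 23 above 0.

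Markers of the other cells of the OE gave the setting of these values. Of 8 immature OSN markers 6 were above 0 at 8 weeks, 8 at 10 weeks and 6 at 5 and 30 weeks, and *Stmn4* rose in the combined fit (log2 fold change 0.48, adjusted p = 0.00863, edgeR). *Gap43* had a combined log2 fold change of 0.25 (adjusted p = 0.752) and *Omp* of 0.12 (adjusted p = 0.759, edgeR). With each library left out, *Gap43* ranged from 0.15 to 0.37 and *Omp* from 0.06 to 0.16. Over the other alternatives they ranged from 0.14 to 0.28 and from 0.003 to 0.25. At 8 weeks the median was -0.25 over 6 markers of globose basal cells and precursors, -0.23 over 3 of horizontal basal cells, 0.22 over 5 of sustentacular cells and -0.27 over 4 of respiratory ciliated cells. At 10 weeks the same lists had medians of 0.25, 0.38, -0.17 and 0.35. Of the Bowman gland markers *Bpifb5* fell at 8 weeks (log2 fold change -3.87, adjusted p = 0.0469, edgeR), while at 10 weeks its value was 4.08 (adjusted p = 0.661, edgeR). *Sox9* and *Muc5b* of the same list were at 0.01 and -0.04 at 8 weeks, and the list had a median of -0.04 at 8 weeks and of -0.05 in the combined fit.

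Markers of blood cells had medians below 0 at 8 weeks, of -0.65 over 4 macrophage genes, -1.17 over 3 lymphocyte genes and -0.47 over 2 erythrocyte genes, but none of these 9 genes passed the test (adjusted p of 0.133 to 0.700, edgeR). The summed levels overlapped between the genotypes for macrophage and erythrocyte genes. The summed lymphocyte level was 64.9, 24.5 and 23.9 CPM in the *WT* mice of 8 weeks and 21.7, 14.2 and 14.4 CPM in the *iRhom2-/-* mice. Every *iRhom2-/-* mouse thus lay below every *WT* mouse, and replicate 1 of *WT* stood well above the rest. At 10 weeks the medians were 0.15, -0.02 and 1.11, and at 5 and 30 weeks -0.25, -1.06 and -0.35. The erythrocyte median at 10 weeks rests on *iRhom2-/-* replicate 2, with summed levels of 485, 3935 and 347 CPM in *iRhom2-/-* against 809, 1022 and 430 CPM in *WT*. Over 5 sex-linked genes the combined median was -0.01. Whether these cells have a part in the values of the members was not tested.

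The calls rest on 3 mice per genotype at 8 and at 10 weeks and on 6 libraries per genotype of unknown age. Submission and age cannot be told apart between the cohorts. Whole OE was measured, so the share of OSNs in each piece of tissue enters every value. For members with close relatives, counts may have been divided between genes, and this was not tested. The calls of *Olfr1024* and *Olfr1212* depend on single libraries, as given above.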

How the data were processed

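Reads had been mapped to GRCm38 by the authors with STAR in an nf-core pipeline, and gene counts came from RSEM. Their deposited table gives every estimated count as a whole number, with the rounding not stated. The deposited log fold change, log CPM, likelihood ratio, p-value and FDR of the authors were not used. From the counts, computed here in R 4.3.3, genotypes were compared with edgeR 4.0.16 (filterByExpr, TMM, quasi-likelihood test, Benjamini-Hochberg over all genes tested, threshold 0.05), in each cohort and over all 24 libraries with the cohort as a term. The interaction was tested with 2 terms together. The members were read from the whole table, and no test of a list was made. Fits were run with edgeR's robust estimate of the spread and without it, with results of the members in view, and the default without it was kept because earlier processing of these data had used it.

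The members and lists were chosen with earlier results of these data known. Genes given by name follow a rule set before the files were opened. They are the member with the smallest p in each direction of each comparison (up to 5 where more passed), the 5 most abundant in *WT* per kb, the 5 with the smallest combined p in each direction among those of equal sign in all cohorts with an unadjusted p under 0.05, the 3 with the smallest interaction p, *Olfr1028*, *Rhbdf2*, *Omp* and *Gap43*, and for each of the first kind the member most like it. Other named genes, the windows of 1 Mb and the families were chosen after the values were seen.

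Coordinates, gene types and coding sequences are those of GENCODE M21 for GRCm38. Alternatives were DESeq2 1.42.0, edgeR's likelihood ratio test, RLE scaling, summed OR counts as library size, other filters and thresholds, the replicate number as a block, mice labelled male alone, labelled sex as a term, fits of other sets of libraries, and fits without each library in turn. Limma 3.58.1 was loaded by edgeR. With 200 genes changed 2-fold in simulated counts, the test found 104 at 8 weeks (of 19335 genes), 77 at 10 weeks (of 18764), 140 at 5 and 30 weeks (of 18481), 154 over all 24 libraries and 75 for the interaction (of 20763 each). The changed genes were drawn at random from all genes tested and not from the members. These numbers therefore do not give the part of changed members that the test would find. Within groups no 2 libraries were alike enough to be duplicates (smallest chi-square over its degrees of freedom 12.8). Single-cell data, histology and protein sequences were left out.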

Additional observations from a re-analysis of the deposited data

Results flagged for a closer look

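In the libraries of 5 and 30 weeks, 56 groups of 6 values were looked at. They were of the named members, of the members' shares of counts, of the number of members with a count, and of *Rhbdf2*, *Omp* and *Gap43*. In 3 of the 56 groups, all of named members, 1 library stood apart from the other 5. Chance alone gives such a library in about 1 in 20 groups. *Olfr1013* was at 2.61 CPM in KO_9, where the next highest *iRhom2-/-* library was at 1.79 CPM. *Olfr1006* was at 1.60 CPM in WT_12, where the next lowest *WT* library was at 2.31 CPM. *Olfr1116* was at 0.312 CPM in WT_12, where the next lowest was at 0.760 CPM. All 3 values were kept in the fits, and their cause was not tested.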

How the results depend on the processing

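At 8 weeks, where edgeR called 0 members, DESeq2 and the likelihood ratio test called 2 each, and the summed OR counts as library size, no filter, a threshold of 0.1, edgeR's robust estimate of the spread and 1 fit of 6 groups called 1 each, *Olfr1024*. The robust estimate was an alternative chosen after the data were seen. Leaving out each library in turn gave 0 to 1 members, with 1 without *WT* replicate 1 (*Olfr1024*) or *iRhom2-/-* replicate 1 (*Olfr1286*). The median log2 fold change was -0.0152 with OR counts as library size and ranged from 0.15 to 0.40 with each library left out. With the replicate number as a block it was 0.26 at 8 weeks and -0.26 at 10 weeks, with 0 members called at 8 weeks, and the cause was not tested. *Rhbdf2* at 8 weeks was -0.85 in mice labelled male alone (adjusted p = 0.0926) and ranged from -0.87 to -0.73 with each library left out, with adjusted p of 0.105 without *WT* replicate 2, 0.0926 without *WT* replicate 3, 0.111 without *iRhom2-/-* replicate 2 and 0.146 without replicate 3. At 10 weeks DESeq2 and the likelihood ratio test called 2 members each, leaving out libraries called 0 to 0, and the median ranged from -0.40 to -0.14. *Rhbdf2* at 10 weeks was -1.14 with OR counts as library size (adjusted p = 0.0806), -1.24 with the replicate block (0.0611, cause not tested) and -1.08 in males alone (0.142), and ranged from -1.34 to -1.09 with each library left out, with adjusted p of 0.153, 0.180 and 0.227 without *WT* replicates 1, 2 and 3 and 0.0829 and 0.0892 without *iRhom2-/-* replicates 1 and 2. At 5 and 30 weeks DESeq2 called 3, the likelihood ratio test 2 and a threshold of 0.1 called 1, leaving out libraries called 0 to 0, the median ranged from 0.07 to 0.15 and *Rhbdf2* from -1.21 to -1.08. In the combined fit, with 2 members called, DESeq2 called 8 (1.67% of all genes and 33 of 1123 ORs), the likelihood ratio test 4 (1.69% of all genes and 25 of 952 ORs), a threshold of 0.1 and adjustment over all *Olfr* symbols 3 each (with *Olfr1259*), a minimum of 10 counts in every library 1, and the fits without the cohort term or of 8 and 10 weeks alone 0. Leaving out each library gave 0 to 4 members, with 0 without *iRhom2-/-* replicate 1 of 8 weeks, 4 without KO_10, and 1 without *WT* replicate 1 or 2 or *iRhom2-/-* replicate 3 of 8 weeks, *WT* replicate 3 or *iRhom2-/-* replicate 1 of 10 weeks, WT_7 or WT_11. The combined median ranged from 0.01 to 0.10 and *Rhbdf2* from -1.10 to -1.04. Combined *Olfr1024* ranged from -2.27 to -1.80 and *Olfr1212* from 0.65 to 0.83. For the interaction the likelihood ratio test called 5, and leaving out libraries called 0 to 0. The ratio of shares at 8 weeks was 0.947 of OR counts, 1.07 without *WT* replicate 1 and 1.31 without *WT* replicate 2, a range of 1.07 to 1.31 with each library left out. The ratio ranged from 0.8002 to 0.947 at 10 weeks and from 1.06 to 1.12 at 5 and 30 weeks, where of OR counts it was 0.995. *Gap43* at 8 weeks went from 0.15 to -0.19 with OR counts as library size, which moved the median of all genes to -0.33. *Omp* ranged from -0.318 to 0.000295 at 10 weeks with each library left out, turning without *WT* replicate 1. At 5 and 30 weeks it ranged from -0.0708 to 0.0517, turning to 0.0222, 0.0073 and 0.0350 without WT_10, WT_11 and WT_12 and to 0.0447 and 0.0517 without KO_11 and KO_12. Replicates of equal number were not paired, since their log2 differences from the group means had r between -0.000924 and 0.264.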
